A study of Mus musculus with 18 samples.

Results

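The 8 genes described here are Meis1, Meis2, Meis3, Pbx2, Pbx3, Pbx4, Pknox1 and Pknox2, out of 21883 protein-coding mouse genes. They were followed in 2 chromatin immunoprecipitation sequencing (ChIP-seq) maps of mouse limb buds, Pitx1 in hindlimb at e11.5 and Tbx5 in forelimb at e10.5, where e counts embryonic days. Both maps came from wild-type CD1 embryos, an outbred strain, with no treatment named, and each was made with a homemade antibody. The deposited lists give the summit of each bound region, its highest point, and a score that was read as the −log10 of the authors' q-value, so a larger score is a more certain peak. A summit belongs to a gene when that gene lies nearest among the protein-coding ones and no more than 100 kb away. By this rule the 8 genes held 120 of 54941 Pitx1 summits and 31 of 10273 Tbx5 summits. With 1 sample for each factor, replicate error could not be estimated and no test was made. The exact Clopper-Pearson 95% intervals on shares cover the counting of summits only. Limb, stage, factor and antibody differ together between the maps, so differences between the lists cannot be told apart from any of these. The lists hold binding positions and no expression, so the tissue labels were not checked against marker genes.

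Meis, Pbx and Pknox proteins are homeodomain transcription factors of the TALE class, named for a loop extension of a few residues in the homeodomain. Pbx proteins bind DNA together with Hox proteins and with a Meis or Pknox partner, which also helps to keep Pbx in the nucleus. In the limb bud, Meis1 and Meis2 mark the proximal part nearest the body wall under the influence of retinoic acid, and Pbx genes act in limb positioning and patterning. Pitx1 is the homeodomain factor that gives the hindlimb its identity, and Tbx5 is the T-box factor needed for forelimb outgrowth.

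RefSeq promoter windows, 250 bases before to 50 after a transcription start on build GRCm38.p6 (the mm10 assembly), matched 5 of the 8 genes, namely Meis1, Meis2, Meis3, Pbx2 and Pbx4. The Meis2 and Pbx4 windows are shown because each contains a Pitx1 summit. Of 21262 windows of protein-coding genes, 11.7% held a Pitx1 summit and 1.48% a Tbx5 summit, and none of the 5 windows held a Tbx5 summit. The capitals mark the 21 bases centred on the Pitx1 summit, and the sequences are written 5′ to 3′ on the strand of the gene.
Meis2, chr2:116064570-116064869, minus strand: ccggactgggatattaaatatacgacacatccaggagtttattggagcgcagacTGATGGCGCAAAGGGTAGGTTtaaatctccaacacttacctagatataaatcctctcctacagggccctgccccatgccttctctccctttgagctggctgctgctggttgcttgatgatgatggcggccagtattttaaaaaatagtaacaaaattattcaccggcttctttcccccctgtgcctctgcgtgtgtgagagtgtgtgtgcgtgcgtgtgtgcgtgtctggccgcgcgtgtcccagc
Pbx4, chr8:69832374-69832673, plus strand: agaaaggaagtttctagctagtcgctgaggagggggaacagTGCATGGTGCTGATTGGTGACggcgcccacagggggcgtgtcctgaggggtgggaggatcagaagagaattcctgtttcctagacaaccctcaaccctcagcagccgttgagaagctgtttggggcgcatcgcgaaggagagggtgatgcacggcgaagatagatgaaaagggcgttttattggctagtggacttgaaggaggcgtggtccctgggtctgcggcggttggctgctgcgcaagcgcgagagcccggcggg
In the Meis2 window the Pitx1 summit fell on base 65, which is 186 bp before the start, with a score of 13.6. In the Pbx4 window it fell on base 52, which is 199 bp before the start, with a score of 5.37. Base 52 of the Pbx4 window is also the first base of the letters TGATTG, a core that Pbx proteins are known to bind. A search of both strands for TGATTG, for TGACAG (Meis and Pknox), for GGATTA (Pitx) and for AGGTGT (T-box) found only this 1 match in the 5 windows. Over all 21262 windows, TGATTG occurred in 14.6%, TGACAG in 18.7%, GGATTA in 6.42% and AGGTGT in 12.7%. At Meis1 the nearest Pitx1 summit, with a score of 29.0, lay 138 bp after the start, outside the window.

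Pitx1 summits were found at 7 of the 8 genes and Tbx5 summits at 4 of the 8, against 54.5% and 18.7% of all protein-coding genes. Pknox2 held 33 Pitx1 and 6 Tbx5 summits. Meis1 held 30 and 10, Pbx3 held 28 and 6, and Meis2 held 24 and 9. The other 4 genes held 5 Pitx1 summits together and no Tbx5 summit: 3 at Pknox1, 1 each at Meis3 and Pbx4, and none at Pbx2. The median over the 8 genes was 13.5 Pitx1 and 3 Tbx5 summits, beside medians of 1 and 0 over all genes. The family was therefore split, with each subfamily holding at least 1 gene rich in summits of both factors and at least 1 with few or none.

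**Figure D1:**
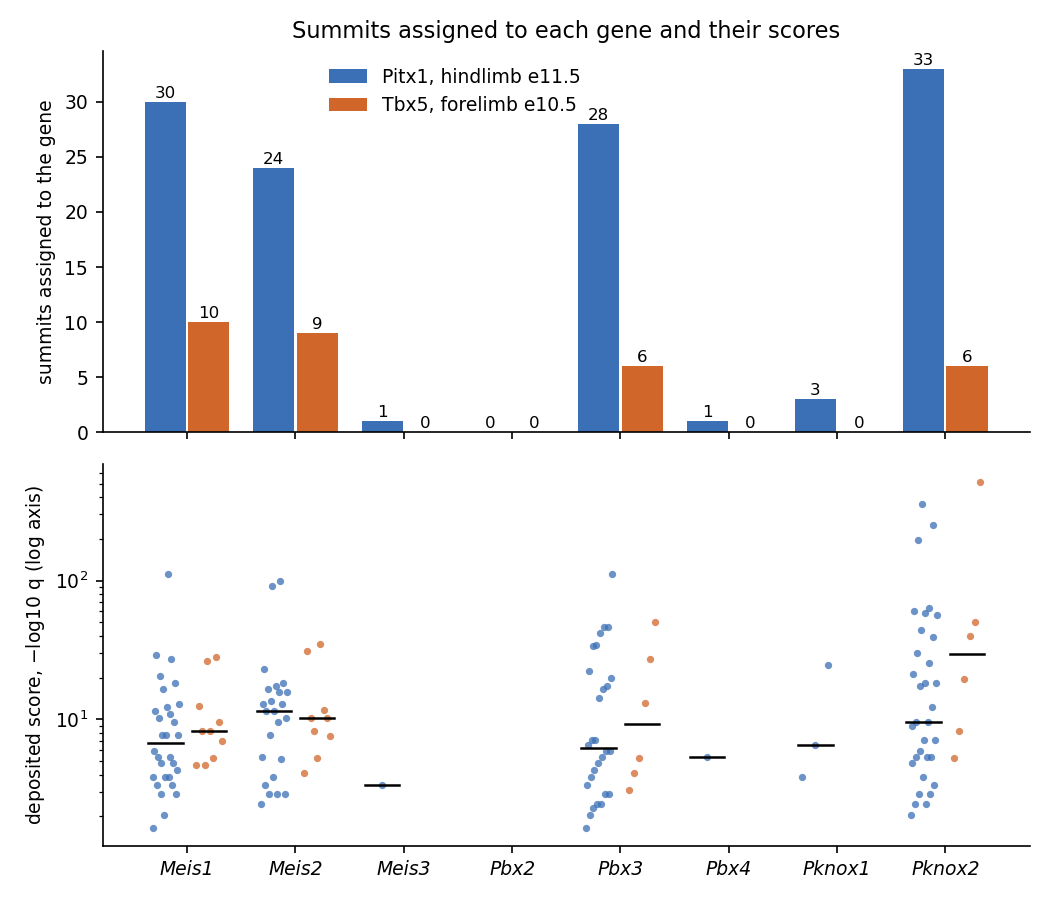
Top, bars give the number of Pitx1 summits (blue, hindlimb e11.5) and Tbx5 summits (orange, forelimb e10.5) assigned to each gene. Bottom, each point is the deposited score of 1 summit on a log axis and the black line is the median; the highest points, 516 for Tbx5 and 358 for Pitx1, are both at Pknox2.

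The split went with the room each gene has on its chromosome. All bases for which a gene is the nearest protein-coding one, within 100 kb, form its domain. Meis1, Meis2, Pbx3 and Pknox2 have domains of 339, 348, 318 and 293 kb, while those of Pknox1, Pbx4, Meis3 and Pbx2 are 62.2, 44.5, 24.4 and 5.40 kb. Among genes with domains of at least 100 kb, 78.3% had a Pitx1 summit and 42.6% a Tbx5 summit, and among genes with shorter domains 45.4% and 9.56%. Per length, the 4 genes with long domains had 8.86 Pitx1 and 2.39 Tbx5 summits per 100 kb of domain, and all protein-coding genes 2.35 and 0.415. The 4 genes with short domains had 3.66 Pitx1 summits per 100 kb. They had no Tbx5 summit in 136.5 kb, a length too short at the all-gene density to show whether Tbx5 sites are fewer there.

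Pknox2 had the highest Pitx1 density of the 8, at 11.3 summits per 100 kb of domain. It was followed by Meis1 at 8.84, Pbx3 at 8.81 and Meis2 at 6.91. Of the 6036 genes with domains of at least 100 kb, 57 had a higher Pitx1 density than Pknox2, 172 than Meis1, 176 than Pbx3 and 388 than Meis2. The Tbx5 density took another order, with Meis1 first at 2.95 per 100 kb, then Meis2 at 2.59, Pknox2 at 2.05 and Pbx3 at 1.89. Of the same 6036 genes, 62 had a higher Tbx5 density than Meis1, 105 than Meis2, 201 than Pknox2 and 260 than Pbx3. The medians of these genes were 1.59 Pitx1 and 0 Tbx5 summits per 100 kb. The Pitx1 densities of Meis1 and Pbx3 are the same to within 1 summit, and with 1 sample per factor the order of such neighbours has no error estimate.

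**Figure D2:**
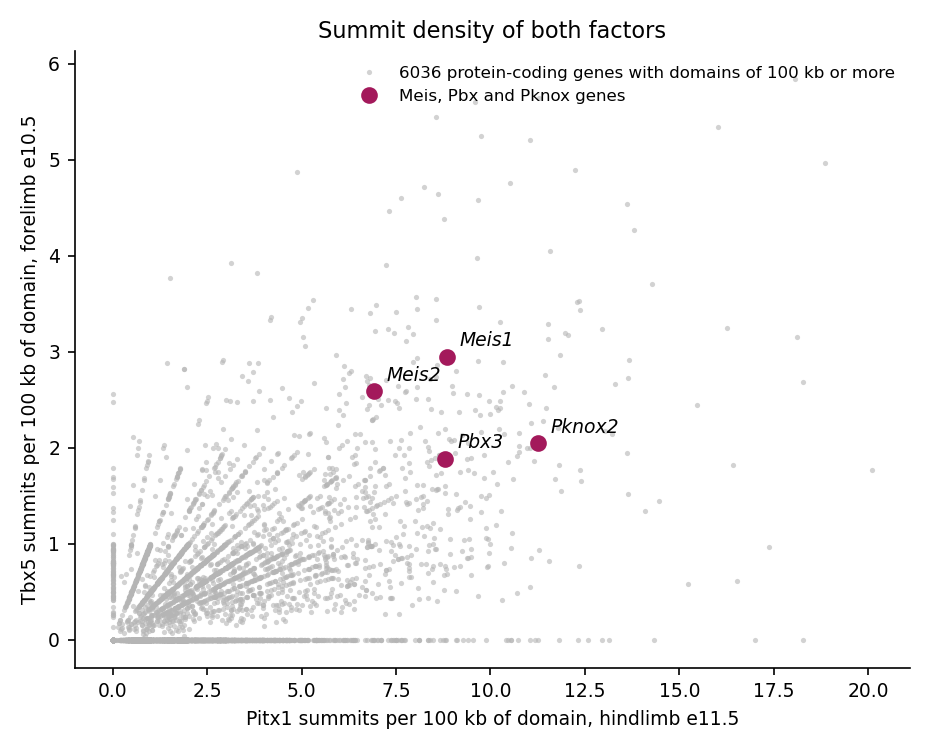
Each grey point is 1 of 6036 protein-coding genes with a domain of at least 100 kb, placed by its Pitx1 and Tbx5 summits per 100 kb of domain. The 4 labelled genes lie between 6.91 and 11.3 for Pitx1 and between 1.89 and 2.95 for Tbx5, above the medians of 1.59 and 0; points in lines are genes with few summits.

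Meis1, a partner of Hox and Pbx proteins that marks the proximal limb, lies on chromosome 11 (18880428 to 19019651, minus strand), with no other protein-coding gene within its 100 kb flanks. Of its 30 Pitx1 summits, 16 were inside the gene, 8 lay past its 3′ end and 6 lay before its 5′ end. Of its 10 Tbx5 summits, 6 were inside, none lay past the 3′ end and 4 lay before the 5′ end. Pitx1 summits were packed around the 3′ end, where 11 fell between positions 18869527 and 18885848. Tbx5 had 1 summit in that stretch, at 18883621 with a score of 7.02, 77 bp from a Pitx1 summit. The long noncoding RNA gene 8430419K02Rik overlaps 5 of the Pitx1 summits past the 3′ end.

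The strongest Meis1 summits of the 2 factors were at different places. The highest Pitx1 score was 111 at position 18916915 inside the gene, and the nearest Tbx5 summit was 18126 bp away. The next Pitx1 scores were 29.0 at 19018831, close to the start site, and 27.3 at 19012111. The highest Tbx5 scores were 28.2 at 19068186 and 26.3 at 19057559, which are 48.5 and 37.9 kb before the 5′ end. The first of these has a Pitx1 partner scoring 11.54 only 36 bp away, inside the long noncoding RNA gene 4933406G16Rik, and for the second the nearest was 10663 bp away. The longest stretch without a Pitx1 summit, 63.6 kb from 18944317 to 19007897 in the gene, contained 3 Tbx5 summits with scores of 12.4, 5.23 and 8.29. The deposited Pitx1 list skips 2 of its peak numbers across that stretch, so it is empty of listed summits and not shown to be unbound. The other shared sites of Meis1 paired Pitx1 and Tbx5 scores of 27.3 and 9.62 at 19012111, 56 bp apart, and of 12.9 and 4.67 at 18898617, 172 bp apart.

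Meis2, the close relative of Meis1 with the same proximal role, lies on chromosome 2 (115861264 to 116067537, minus strand). Of its 24 Pitx1 summits, 15 were inside, 6 past the 3′ end and 3 before the 5′ end, and of its 9 Tbx5 summits 5, 2 and 2. Both factors were concentrated at the 2 ends of the gene. At the 3′ end, 9 Pitx1 summits lay between 115852324 and 115869274 and 4 Tbx5 summits between 115856876 and 115869226. At the 5′ end, 7 Pitx1 summits lay between 116062546 and 116076186, with 3 Tbx5 summits among them. Between position 115923517 and 116065642, a distance of 142 kb, there was no Tbx5 summit.

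The strongest Pitx1 site and the strongest Tbx5 site of Meis2 lay at opposite ends of the gene, and each had a summit of the other factor beside it. The highest Pitx1 score, 98.9 at 115869274, lay 48 bp from a Tbx5 summit with a score of 30.9, which is the second-highest Tbx5 score of the gene. The next Pitx1 score, 91.7 at 115897750, lay 10 bp from the Tbx5 summit with the gene's lowest Tbx5 score, 4.13. The highest Tbx5 score, 34.7 at 116065642, was 1023 bp before the start site of the promoter window shown above and 9 bp from a Pitx1 summit scoring 17.4. That Tbx5 summit was also the nearest to the Pitx1 summit inside the window, at 837 bp. The long noncoding RNA gene G630016G05Rik overlaps all 3 Pitx1 and both Tbx5 summits that lie before the 5′ end of Meis2. One of these Pitx1 summits, at 116076186 with a score of 23.0, was 59 bp from a Tbx5 summit scoring 5.23. Near the 3′ end, Pitx1 and Tbx5 summits scoring 11.54 and 8.29 lay 57 bp apart at 115866134.

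**Figure D3:**
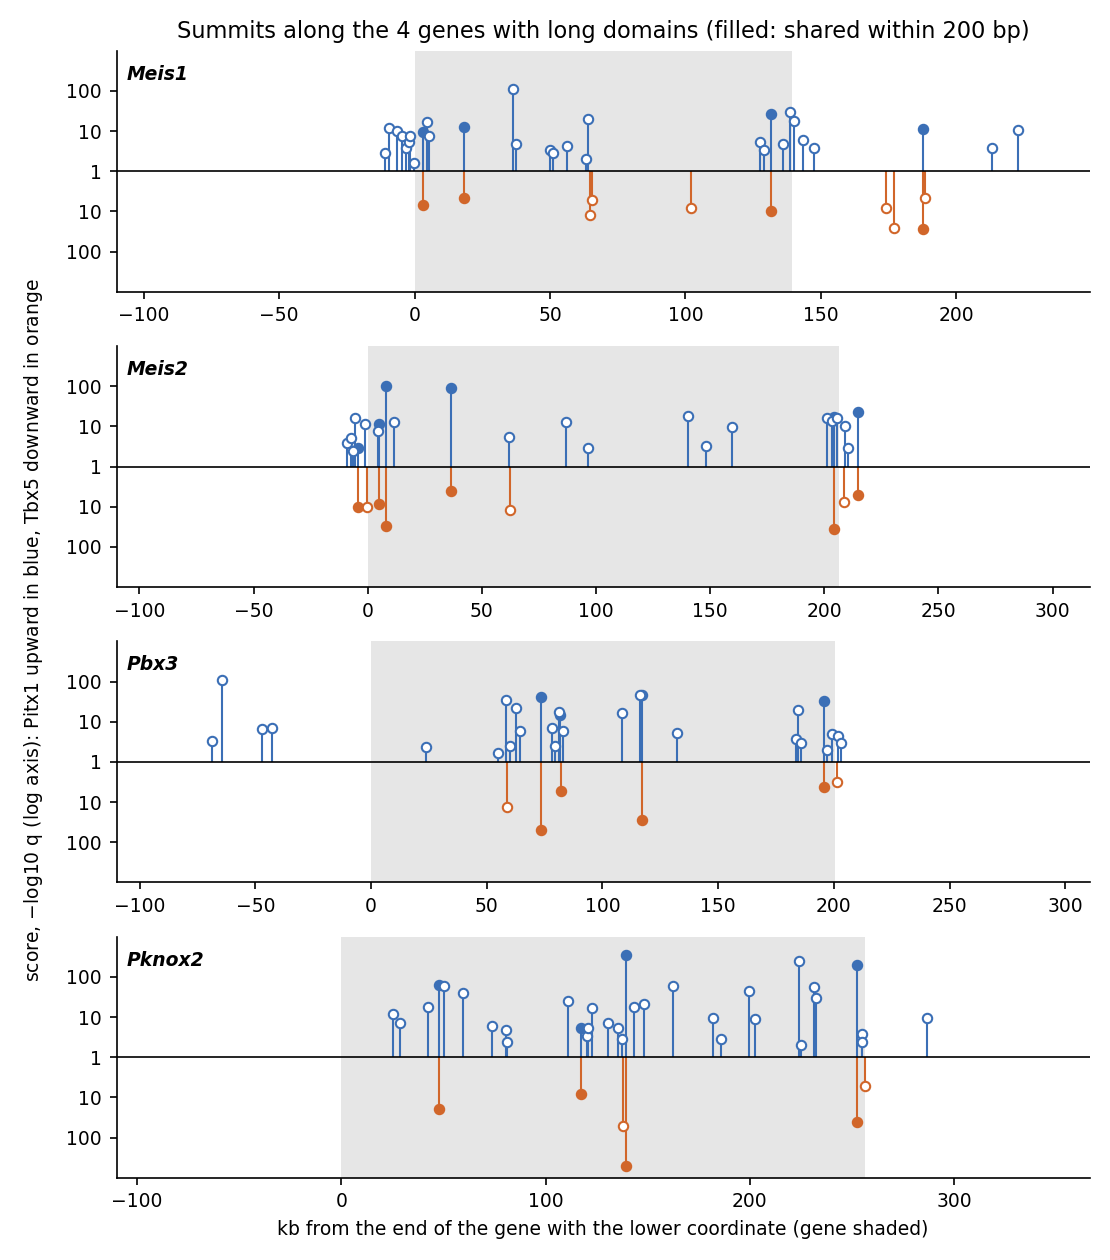
Each panel is 1 gene (shaded), with position in kb from its end with the lower coordinate. Stems give the score on a log axis, Pitx1 upward in blue and Tbx5 downward in orange, and filled circles are summits with one of the other factor within 200 bp; filled circles number 4 pairs at Meis1, 6 at Meis2, 4 at Pbx3 and 4 at Pknox2. Meis1 and Meis2 run from right to left.

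Meis3, the remaining Meis gene, lies among close neighbours on chromosome 7 (16174012 to 16186510, plus strand). It held 1 Pitx1 summit, at position 16174247 with a score of 3.35. The summit was inside the gene, 0.235 kb from its 5′ end, and 1148 bp before the start of its promoter window's transcript. The next Pitx1 summit, with a score of 12.9 at 16192565, lay 6.06 kb outside Meis3 and was assigned to Dhx34. No Tbx5 summit lay within 20 kb of Meis3.

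Pbx3, which encodes a DNA-binding partner of Hox proteins, lies on chromosome 2 (34171457 to 34372045). Of its 28 Pitx1 summits, 22 were inside the gene, 4 lay below its lower coordinate and 2 above its upper one, and of its 6 Tbx5 summits 5 were inside and 1 above. Pitx1 summits were densest within the gene, with 8 between 34234271 and 34254206. The highest Pitx1 score, 111 at 34107200, lay 64.3 kb outside the gene in the long noncoding RNA gene C230014O12Rik, and no Tbx5 summit was closer than 122993 bp. Inside the gene the highest Pitx1 scores were 46.2 at each of 34288686 and 34287841, then 42.2 at 34244925.

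The 2 strongest Tbx5 summits of Pbx3 were both at strong Pitx1 summits. The highest Tbx5 score, 49.9 at 34244962, lay 37 bp from the Pitx1 summit scoring 42.2, and the next, 27.2 at 34288716, lay 30 bp from one scoring 46.2. A further Tbx5 summit, 13.2 at 34230193, lay 366 bp from a Pitx1 summit scoring 34.5, outside the 200 bp used to call a site shared. At 34253269, a Pitx1 summit scoring 14.4 lay 61 bp from a Tbx5 summit scoring 5.23. Near the upper end of the gene, Tbx5 summits scoring 4.13 and 3.10 lay 23 bp and 550 bp from Pitx1 summits scoring 33.6 and 4.32.

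Pbx4 and Pbx2, the other Pbx genes of the set, had few summits or none. Pbx4, on chromosome 8 (69832476 to 69872292, plus strand), held only the Pitx1 summit at 69832425 that lies in its promoter window, with a score of 5.37. Pbx2 lies on chromosome 17 (34592259 to 34597400, plus strand) with a domain of 5.40 kb between close neighbours. A Pitx1 summit with a score of 9.54 at 34591821 lay 438 bp before the Pbx2 start. It was assigned to Gpsm3, which was 67 bp away. The strongest Pitx1 summit within 20 kb of Pbx2 scored 91.7 at 34603850, 6.45 kb from the gene, and was assigned to Rnf5. The absence of Pitx1 summits at Pbx2 thus describes the assignment. Tbx5 had no summit within 20 kb of Pbx2 or Pbx4. Within 100 kb, whichever gene is nearest, there were 2 Tbx5 summits at Meis3, 1 at Pbx4, 1 at Pknox1 and none at Pbx2. All of these were assigned to other genes, so the lack of Tbx5 summits at those 3 genes also depends on the assignment.

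Pknox2, also called Prep2, encodes a partner of Pbx proteins and had the strongest sites of both factors among the 8 genes. It lies on chromosome 9 (36890979 to 37147342). All 6 Tbx5 summits and 32 of 33 Pitx1 summits were inside the gene, against 60.5% and 60.6% of all assigned summits. The gene itself takes up 256 kb of its 293 kb domain, so most positions that could be assigned to it lie inside. At position 37030477 the Tbx5 score was 516, rank 9 of 10273, and the Pitx1 summit 89 bp away scored 358, rank 65 of 54941. The next Pitx1 scores were 250.01 at 37115056, rank 178, with the nearest Tbx5 summit 28456 bp away, and 194 at 37143432, rank 326, with a Tbx5 summit scoring 39.6 at a distance of 80 bp. The remaining Tbx5 scores were 49.9, 19.5, 8.29 and 5.23. Of these, the summit scoring 19.5 lay 65 bp from a Pitx1 summit scoring 63.0 at 36938602, and the one scoring 8.29 lay 27 bp from a Pitx1 summit scoring 5.37 at 37008268. The median Pitx1 score of the gene was 9.54 and the median Tbx5 score 29.5, beside 7.07 and 8.29 in the full lists.

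Pknox1, the paralog of Pknox2 also called Prep1, lies on chromosome 17 (31564722 to 31607693). Its 3 Pitx1 summits scored 24.7 at 31557688, 6.49 at 31564333 and 3.83 at 31565855. They lay 7.03 kb outside, 0.389 kb outside and inside the gene, all at the end with the lower coordinate. The nearest Tbx5 summits were 45339 to 53506 bp away.

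The scores at the 8 genes had medians slightly above those of the full lists, with quartiles at or above theirs. The 120 Pitx1 scores ran from 1.64 to 358, with 7.67 as the median and 3.83 and 18.1 as the quartiles, against 7.07, 3.83 and 15.1 for all Pitx1 summits. Of the 120, 55.0% (95% interval 45.7 to 64.1) were at or above the median of the list. The 31 Tbx5 scores ran from 3.10 to 516, with 9.62 as the median and 5.23 and 26.8 as the quartiles, against 8.29, 5.07 and 18.6, and 64.5% (45.4 to 80.8) were at or above the median of the list. Both intervals include 50%, so the members' scores were not separable from the lists at this count.

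Shared sites were found at each of the 4 genes that had Tbx5 summits. A Pitx1 summit lay no more than 200 bp from 18 of the 31 Tbx5 summits, a share of 58.1% (95% interval 39.1 to 75.5) against 39.5% of the full Tbx5 list. Of the 120 Pitx1 summits, the same 18 pairs make 15.0% (9.14 to 22.7) against 7.39% of the full Pitx1 list. The first interval includes the share of the full list. In 6 of 10 alternative settings it lay wholly above the full list's share under the same setting. Those settings recount mostly the same summits and are not independent, so their tally adds no separate evidence. The second interval does not include its full-list share. Each share also depends on how many summits of the other factor lie in the same genes. The 4 genes had 8.86 Pitx1 summits per 100 kb of domain, against 2.35 over all protein-coding genes. Summits of 1 gene are not replicates of each other. Summing the full list's shares over 5 classes of score, at the members' own scores, gave 12.9 shared Tbx5 summits and 9.54 shared Pitx1 summits beside the 18 observed.

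By gene, 4 of 10 Tbx5 summits were shared at Meis1 (40.0%, 12.2 to 73.8), 6 of 9 at Meis2 (66.7%, 29.9 to 92.5), and 4 of 6 at each of Pbx3 and Pknox2 (66.7%, 22.3 to 95.7). The intervals overlap, so the genes could not be ordered by sharing. Among all protein-coding genes, 0.612% had 4 or more shared Tbx5 summits, and among those with domains of at least 100 kb 2.17%. The cut of 4 is the lowest count of the 4 genes, so all 4 reach it by construction. A gene with fewer than 4 Tbx5 summits cannot reach it, so these shares do not measure how unusual the sharing is. Paired summits were 9 to 172 bp apart with a median of 56.5 bp, beside 60 bp over all 4062 pairs. Another 8 of the 31 Tbx5 summits lay between 200 and 1000 bp from a Pitx1 summit, and the remaining 5 lay farther off, 4 at Meis1 by 1585 to 25549 bp and 1 at Pknox2 by 1118 bp. From Tbx5 to Pitx1 the median of the shortest distances was 80 bp at the 8 genes and 540 bp over the full list.

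The 18 shared pairs differed in the balance of their scores, which come from separate libraries and are not on a common scale. Of the 18, 15 lay inside the genes. The Tbx5 score exceeded the Pitx1 score in 6 pairs, or 33.3% (13.3 to 59.0), against 41.6% of all shared pairs. Pitx1 scores were highest relative to Tbx5 at the Meis2 pair of 91.7 and 4.13 and at the Pbx3 pair of 33.6 and 4.13. Tbx5 scores were highest relative to Pitx1 at the Meis2 pair 4.39 kb past the 3′ end, with 10.3 for Tbx5 and 2.89 for Pitx1, and at the Meis1 pair before the 5′ end, with 28.2 and 11.54. When all 4062 pairs were ordered by the sum of their relative ranks in the lists, the strongest Pknox2 pair was at place 2, followed among the members by another Pknox2 pair at 221, a Pbx3 pair at 330 and a Meis2 pair at 348. The first Meis1 pair was at place 1293.

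**Figure D4:**
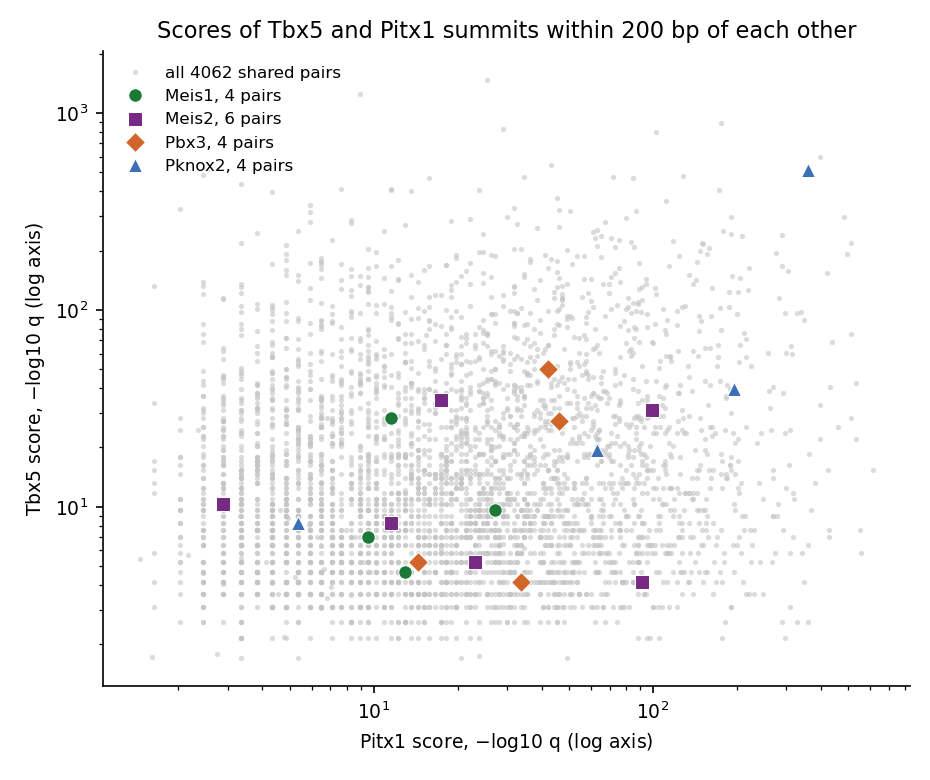
Each grey point is 1 of 4062 pairs of a Tbx5 and a Pitx1 summit within 200 bp, placed by the Pitx1 score and the Tbx5 score on log axes; coloured symbols are the 18 pairs at the 4 genes. The Pknox2 pair with scores of 358 and 516 stands at the upper right, and the other 17 lie within the cloud.

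The second, shorter Pitx1 list kept 45 of the 120 Pitx1 summits, or 37.5% (95% interval 28.8 to 46.8), against 32.4% of the full list. It kept 14 of 33 at Pknox2, 11 of 28 at Pbx3, 10 of 30 at Meis1 and 10 of 24 at Meis2. None of the 5 summits at Meis3, Pbx4 and Pknox1 was kept. Summing the full list's shares over 10 classes of score gave 43.5 for the 120 summits, so the members were kept about as often as other summits of like score. All 16 member summits in the highest class, with scores of at least 35.6, were kept, against 93.7% of that class in the full list. The highest score left out was the 24.7 at Pknox1. Of the 18 shared Pitx1 summits, 13 were kept, which is 72.2% (46.5 to 90.3) against 58.6% for all shared pairs.

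Between 100 and 500 kb away, Meis1 had the most further summits for which a member is the nearest protein-coding gene. It remained the nearest protein-coding gene of another 27 Pitx1 and 10 Tbx5 summits at distances of up to 444 and 390 kb, and 3 of these Tbx5 summits were shared. The highest of the Tbx5 scores was 76.7 at position 18714505, 166 kb past the 3′ end of Meis1, with a Pitx1 summit 102 bp away. The highest of the Pitx1 scores was 134 at 18617546, 263 kb past the 3′ end. Both exceed the highest scores assigned to Meis1 within 100 kb. In the same range Pbx3 had 4 more Pitx1 summits, with scores of at most 15.1, Meis2 had 2 more Tbx5 summits, with scores of at most 6.40, and the other 5 genes had none. The order was another when every summit within 500 kb was counted, whichever gene is nearest: Pbx3 then had 78 Pitx1 summits, Meis1 58 and Meis2 55, and Meis2 had 25 Tbx5 summits, against 20 at each of Meis1 and Pbx3. Nearness on the chromosome does not show which gene a site acts on.

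Other genes of the TALE class carried summits too. Of 10 genes, namely Tgif1, Tgif2, Mkx, the Iroquois genes Irx1 to Irx6 and Pbxip1, which encodes a Pbx-binding protein outside the class, all 10 had Pitx1 summits, 75 in all, and 5 had Tbx5 summits, 12 in all, of which 6 were shared. The medians were 7 and 1 per gene. Over all protein-coding genes, 54.5% had a Pitx1 summit and 18.7% a Tbx5 summit, and 39.5% of the full Tbx5 list was shared. All 5 listed genes with Tbx5 summits were Iroquois genes. Irx3 and Irx5 held the most Pitx1 summits, 14 each, and Irx5 and Irx6 the most Tbx5 summits, 3 each, which are fewer than at any of Meis1, Meis2, Pbx3 and Pknox2. Per 100 kb of domain, Irx3 had 8.32 Pitx1 summits, close to the 8.84 of Meis1, and 1.19 Tbx5 summits against 2.95. Tgif1, a TALE repressor, had 12.4 Pitx1 summits per 100 kb and no Tbx5 summit.

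Genes that act on the proximal to distal axis of the limb, on which Meis1 and Meis2 mark the proximal side, were listed beside them. All 17 had Pitx1 summits, 141 in all, and 10 had Tbx5 summits, 33 in all, of which 13 were shared, with medians of 5 and 1 per gene. Of all protein-coding genes, 54.5% had a Pitx1 summit and 18.7% a Tbx5 summit. The 13 of 33 shared was close to the 39.5% of the full Tbx5 list. Shox2, which shapes the proximal limb skeleton, had 13.6 Pitx1 and 4.54 Tbx5 summits per 100 kb of domain, both above Meis1. Aldh1a2, which makes retinoic acid, had 4.09 and 1.53, and Cyp26b1, which degrades it, 2.97 and none. Of the retinoic acid receptor genes, Rarb had 4.13 and 1.46, while Rara had 23.6 and 4.29 and Rarg 17.5 and 5.83 in shorter domains of 46.6 and 34.3 kb. The distal Hox genes Hoxa13 and Hoxd13 held 15 and 4 Pitx1 summits and no Tbx5 summit. Their more proximally acting relatives Hoxa9 and Hoxd9 held 3 and 5 Pitx1 and 3 and 2 Tbx5 summits. Of the listed Hox genes between them, Hoxa10 and Hoxd11 held 1 Tbx5 summit each, and Hoxa11, Hoxd10 and Hoxd12 held none. The domains of the listed Hox genes are short, from 5.3 to 34.9 kb, and an order along the axis was not tested.

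Genes with the most similar pair of densities were sought for the 4 genes with long domains, among 276 genes with at least 5 Tbx5 and 10 Pitx1 summits. Likeness was the Euclidean distance between the log2 summits per Mb of domain for the 2 factors, and it rests on 1 sample per factor. The nearest to Meis1 were Farp1 (25 Pitx1 and 8 Tbx5 summits, distance 0.12), Bmpr1b (31 and 10, distance 0.14) and Ebf2 (34 and 10, distance 0.16). For Meis2 they were its neighbour BC052040 (23 and 9, distance 0.04), Plpp3 (14 and 5, distance 0.05) and Dennd1a (34 and 13, distance 0.07). Adk (37 and 8, distance 0.01), Slit3 (60 and 13, distance 0.10) and Lrba (50 and 12, distance 0.12) were nearest to Pbx3. Rad51b (72 and 13, distance 0.05), Jazf1 (44 and 8, distance 0.06) and Glis1 (25 and 5, distance 0.10) were nearest to Pknox2. In the order named, from Farp1 to Glis1, the shared Tbx5 summits were 3, 6, 5, 4, 3, 6, 5, 7, 4, 7, 4 and 3.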

How the data were processed

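ChIP-seq summit lists of 2 of the 18 samples were used, Pitx1 in e11.5 hindlimb and Tbx5 in e10.5 forelimb. The other 16 samples, of histone marks and inputs, were left out. Build mm10 and the tools HOMER, MACS2 2.1.1.20160309, Bowtie2 2.2.6 and Bowtie 1.1.2 are named, without role or order, per the submitters' processing notes. Deposited scores were taken to be the −log10 of the q-value, as MACS2 writes it, since the lowest scores (1.31 and 1.42) lie just above 1.30, the −log10 of 0.05. The second deposited Pitx1 list is a subset of the first and carries a further score and distances that are not explained and were not used. Read depth is unknown, and the control library, pooling and later filters were not given in the sources used here. Peak numbers are missing from both deposited lists: 77.8% of Pitx1 and 60.4% of Tbx5 numbers are present, and in the spans of the described genes 91.5% and 93.9%.

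Genes came from RefSeq on GRCm38.p6 (21883 protein-coding genes on the numbered chromosomes, X and Y). A summit inside overlapping genes went to the one whose middle was nearer. Domains were measured on a grid of 100 bp. The strand was known where a promoter window was present. No genome sequence was used, so summit sequences outside promoter windows are not shown. All 8 genes were named, with the highest-scoring summit of each gene and list, every shared pair and every summit in a promoter window, and for genes with enough summits the 3 with the nearest densities. The members and lists were chosen with earlier results of these data known. Python 3.11.15, numpy 2.4.6, pandas 2.3.3 and scipy 1.17.1 were used, and the assignment and pairing steps were tested on simulated data. Alternatives changed the assignment distance, the gene types, the summit lists and the distance for sharing.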

Additional observations from a re-analysis of the deposited data

How the results depend on the processing

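Of 38 recomputed values, 31 stayed within 1.5 times the count reported or inside the 95% interval of the share reported. Counts of Pitx1 summits depended on how the list was limited: 120 became 45 with the second Pitx1 list, 27 with only as many of the highest-scoring Pitx1 summits as there are Tbx5 summits, and 66 with summits at or above the median score, where the 31 Tbx5 summits became 20. The genes with a Pitx1 summit went from 7 to 4 with the second list. The shared share of Tbx5 summits went from 58.1% to 32.3% with the shortened Pitx1 list, beside 17.8% for the full Tbx5 list, and to 83.9% when pairs within 1000 bp counted, beside 55.1%. These alternatives use fewer summits or a wider distance by construction. The members' share lay above that of the full list under each of the 10 alternatives run for it, from 32.3% against 17.8% to 83.9% against 55.1%. In 6 of the 10 its 95% interval also lay wholly above the full list's share, which it did not as reported. The alternatives recount mostly the same summits and are not independent. Taking the nearest gene within 20 kb and taking all summits within 20 kb both gave 17 of 27. Counting all summits within 20 kb of a gene, whichever gene is nearest, was added after the data were seen. It gave 8 genes with a Pitx1 summit, since Pbx2 then had 3, and 4 with a Tbx5 summit.

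No paired analysis was possible because each factor has 1 sample. Read depth is unknown, so a missing summit does not show that a site is unbound.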
